A study of Mus musculus with 4 samples.

Results

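The integrin and laminin chains of sorted cardiac progenitors were compared between control cells and cells without functional Isl1. The members were all genes whose symbol names an integrin alpha chain (Itga), an integrin beta chain (Itgb) or a laminin alpha, beta or gamma chain (Lama, Lamb, Lamc), whatever their values. They came to 37 of 20701 gene symbols, 26 integrin chains (18 alpha and 8 beta) and 11 laminin chains. RNA was taken from day 5 derivatives of E14 Tg(Nkx2-5-EmGFP) mouse embryonic stem cells, sorted for GFP from the Nkx2-5 reporter (Nkx2-5 is an early cardiac homeobox gene). Control and Isl1_KO cells both carried this reporter and were both kept on mitomycin-treated feeder cells before differentiation. The Isl1_KO cells were Isl1-/- clones made by CRISPR/Cas9 editing, and each group had 2 libraries, described as coming from 2 different clones. An effect of the Isl1 genotype and an effect of the clones carried by each group cannot be told apart, and p-values measure the spread between these 4 libraries.

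Laminins are heterotrimers of an alpha, a beta and a gamma chain that build the sheet of the basement membrane. Integrins are heterodimers of an alpha and a beta chain that bind laminins, collagens or RGD-containing proteins such as fibronectin, and couple them to the actin cytoskeleton. In the early heart, basement membrane laminins and fibronectin surround the epithelial-like progenitors, and Isl1 is a LIM-homeodomain factor of these progenitors.

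Over 1 transcript per gene, control replicates 1 and 2 had totals of 8821517 and 9147425 counts and Isl1_KO replicates 1 and 2 had totals of 13186109 and 11388333, of which the members took 39156 to 60234. Isl1 itself stood at 35.1 and 35.7 CPM in control, where CPM is the count of a gene per 1e6 counts of its library, and at 1.31 and 2.08 CPM in Isl1_KO, a 21.0-fold difference (log2 fold change -4.39, SE 0.213, adjusted p = 0.00277, edgeR quasi-likelihood test with Benjamini-Hochberg adjustment). The Isl1_KO libraries differed from each other far more than the control libraries did, with a biological coefficient of variation of 16.3% against 1.29%. All 7 listed cardiac progenitor markers (among them Nkx2-5, Gata4 and Pdgfra) were detected. Their summed level, which includes Isl1, was 797.9 and 787.7 CPM in control and 345.6 and 287.0 CPM in Isl1_KO. Of these 7 markers, 5 were called lower in edgeR. Nkx2-5, the gene of the sorted reporter, was 1 of them. It was at 21.1 and 19.8 CPM in control and 4.77 and 4.34 CPM in Isl1_KO (adjusted p = 0.00703, edgeR). The summed cardiomyocyte markers were at 1233 and 1249 CPM in control and 54.8 and 43.6 CPM in Isl1_KO.

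Itgb3 and Lama2 were the chains that passed the test, and both fell. Itgb3 encodes the beta3 chain, which pairs with alphaV as a vitronectin and fibronectin receptor. It was measured at 49.8 and 48.0 CPM in control and at 26.9 and 24.1 CPM in Isl1_KO, so the lowest control library lay well above the highest Isl1_KO library. The difference was 1.92-fold (log2 fold change -0.94, SE 0.105, adjusted p = 0.0228, edgeR). Lama2 encodes the alpha2 chain of the muscle laminin that binds dystroglycan and integrin alpha7beta1. Its level was 8.29 and 9.19 CPM in control and 2.61 and 1.65 CPM in Isl1_KO, again without overlap. It was 4.05-fold lower (log2 fold change -2.02, SE 0.274, adjusted p = 0.0359, edgeR), from as few as 19 counts in Isl1_KO replicate 2. These 2 calls stand beside 311 of 12715 tested genes called over the whole table (2.45%), of which 247 were lower (1.94%). In bulk RNA, fewer cells of a type and less RNA per cell cannot be told apart. Both calls were lost without control replicate 1 (adjusted p = 0.365 for Itgb3 and 0.365 for Lama2, edgeR) and without control replicate 2 (0.317 and 0.382), while the log2 fold changes stayed between -0.97 and -0.91 and between -2.10 and -1.95.

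Of the 37 members, 28 had enough counts for the test and 9 did not. The 9 were the leukocyte chains Itgad, Itgae, Itgal, Itgam, Itgax, Itgb2 and Itgb7, the epithelial chain Itgb6 and Lamc3, none of which exceeded 0.999 CPM or 13 counts in a library. At an unadjusted p under 0.05, edgeR gave 9 of the 28 chains, where 23.3% of all tested genes reached that level. The log2 fold change was negative for 22 of them and positive for 6, with a median of -0.37, against -0.0027 over all tested genes. Both Isl1_KO libraries lay below both control libraries for 17 chains (29.0% of all tested genes), above them for 3 (29.1% of all tested genes), and overlapped for 8. The criteria of the study, an absolute log2 fold change over 0.58 with an unadjusted p under 0.05 in DESeq2, were met by 6 chains on the lower side, where 4.57% of all genes with counts met them, and by 1 on the higher side, where 1.32% did. These chains were Itga1, Itga7, Itga8, Itgb3, Lama1 and Lama2 on the lower side and Itga2b on the higher side. With Benjamini-Hochberg adjustment, DESeq2 called 5 chains, Itga1, Itga8, Itgb3, Lama1 and Lama2, beside 3.58% of all genes with counts.

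**Figure D1:**
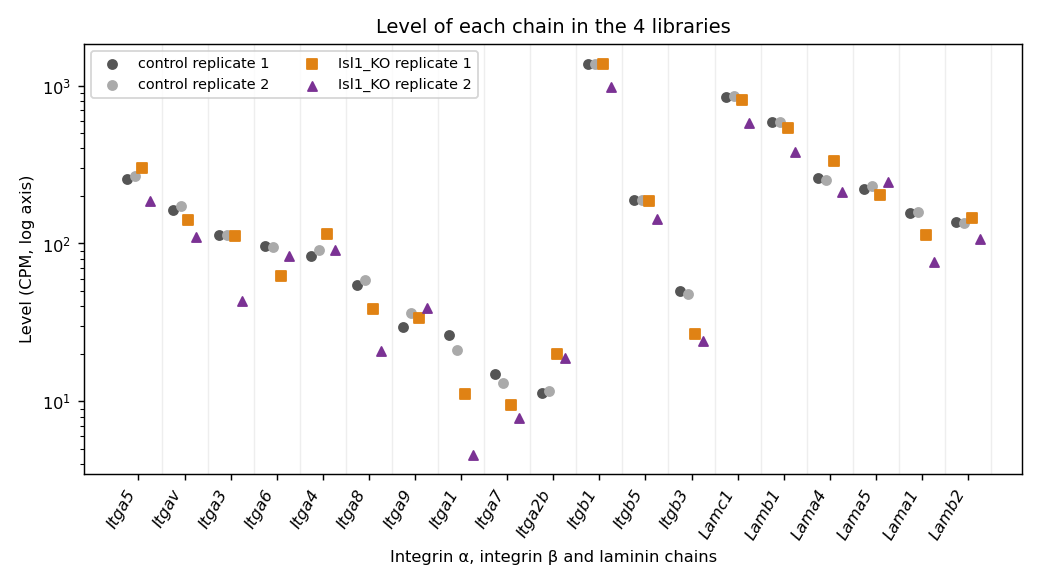
Level in CPM (log axis) of 19 of the 20 chains with a mean of at least 10 CPM, 1 point per library, ordered by the control mean within integrin alpha, integrin beta and laminin chains. The control points nearly coincide for most chains, and Itgb3 and Itga2b are among those with their Isl1_KO points close together. Itga3 has Isl1_KO replicate 1 at 111.1 CPM beside control and replicate 2 at 43.0 CPM.

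The plot of levels by library shows chains from the abundant Itgb1 down to those near 10 CPM, and makes clear that most of the scatter lies between the Isl1_KO points. For 4 of the chains that met the criteria of the study, RefSeq promoter sequences were at hand. The 250 bases before the start of transcription are shown for these genes, 5′ to 3′ on the strand of the gene, in the build GRCm38.p6, because these chains met the criteria of the study and can be compared side by side. Capitals mark the homeodomain core TAAT on either strand (ATTA on the reverse). CTAATG, which contains TAAT, and the GATA motif AGATAA were also searched on both strands, and neither was present in these 4 windows.
Lama2, chr10:27616943-27617192, minus strand: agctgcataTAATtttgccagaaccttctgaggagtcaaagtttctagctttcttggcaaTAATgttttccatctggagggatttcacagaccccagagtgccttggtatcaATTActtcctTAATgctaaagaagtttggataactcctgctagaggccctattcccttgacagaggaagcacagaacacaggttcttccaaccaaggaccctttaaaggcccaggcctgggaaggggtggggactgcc
Itga8, chr2:12301945-12302194, minus strand: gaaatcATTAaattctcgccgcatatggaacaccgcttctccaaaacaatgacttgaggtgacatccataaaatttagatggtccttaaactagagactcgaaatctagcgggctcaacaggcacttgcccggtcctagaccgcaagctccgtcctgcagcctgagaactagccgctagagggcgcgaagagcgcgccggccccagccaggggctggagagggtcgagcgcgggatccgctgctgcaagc
Itga1, chr13:115101965-115102214, minus strand: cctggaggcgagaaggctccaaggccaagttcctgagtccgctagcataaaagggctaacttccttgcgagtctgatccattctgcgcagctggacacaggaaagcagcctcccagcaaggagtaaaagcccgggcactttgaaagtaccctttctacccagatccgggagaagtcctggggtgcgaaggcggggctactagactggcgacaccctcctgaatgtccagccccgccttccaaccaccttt
Itga2b, chr11:102469884-102470133, minus strand: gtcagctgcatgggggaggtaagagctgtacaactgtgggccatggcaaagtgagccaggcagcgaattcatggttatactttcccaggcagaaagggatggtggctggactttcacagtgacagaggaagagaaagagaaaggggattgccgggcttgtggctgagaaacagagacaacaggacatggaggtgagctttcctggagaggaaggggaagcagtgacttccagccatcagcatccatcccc

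The Lama2 window held 4 TAAT matches, the Itga8 window held 1, and the Itga1 and Itga2b windows held 0. Over all members, 23 of 37 matched a RefSeq promoter, with 26 sequences in all. TAAT was found in 10 of these (38.5%), against 54.9% of 32851 promoter windows of the same length. CTAATG was found in 2 (7.69%), upstream of Itga5 and Itgb5, against 6.36%, and AGATAA in 1 (3.85%) against 9.99%. Neither Itga5 nor Itgb5 passed the test (adjusted p = 0.790 and 0.426, edgeR).

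The collagen-binding alpha chains, which pair with beta1, are encoded by Itga1, Itga2, Itga10 and Itga11. Itga1 had the largest difference of any integrin chain, at 26.3 and 21.2 CPM in control and 11.1 and 4.60 CPM in Isl1_KO. The groups did not overlap, and Isl1_KO replicate 2 was at well under the level of replicate 1. The 2.99-fold difference (log2 fold change -1.58, SE 0.398) did not pass in edgeR (adjusted p = 0.110). It passed in DESeq2 (adjusted p = 0.00313) and in edgeR with the replicate number as a block (adjusted p = 0.0256). The replicate numbers did not pair the samples (correlation of deviations 0.0128), so no conclusion is drawn from the fit with the block. Itga2, whose product is the platelet and epithelial collagen receptor, was at 2.95 and 1.75 CPM in control and 1.38 and 0.347 CPM in Isl1_KO, the last from 4 counts (log2 fold change -1.39, SE 0.629, adjusted p = 0.262, edgeR). Itga10 and Itga11, best known from cartilage and fibroblasts, stayed between 2.08 and 5.14 CPM in all libraries, with adjusted p-values of 0.325 and 0.425 in edgeR.

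Itga1 and Itga2 lie beside each other on chromosome 13 (115748287 to 115892172 and 115626124 to 115722249 in the mm9 assembly, both on the minus strand, with gene models of GENCODE vM1), 26.0 kb apart. They are in the neighbourhood of Isl1 itself, which starts 1.20 Mb beyond the end of Itga1 (117088478 to 117099896). Pelo, a ribosome rescue factor gene inside the span of Itga1, was measured at 24.4 and 25.2 CPM in control and 22.9 and 21.1 CPM in Isl1_KO (log2 fold change -0.17, adjusted p = 0.405, edgeR). Mocs2, on the far side of Itga2, was at 26.9 and 26.5 CPM in control and 24.7 and 22.6 CPM in Isl1_KO (log2 fold change -0.18, adjusted p = 0.386, edgeR). Pelo and Mocs2 were thus slightly below control in both Isl1_KO libraries, and a difference between them and the integrin chains was not tested. On the other side of Itga1 the next gene in the table was Isl1 itself, followed by Parp8 (log2 fold change -0.63, adjusted p = 0.165, edgeR).

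The laminin-binding alpha chains are encoded by Itga3, Itga6 and Itga7, and none passed the test. Itga7, the main laminin receptor chain of muscle, was at 15.0 and 13.1 CPM in control and 9.46 and 7.90 CPM in Isl1_KO (1.62-fold, log2 fold change -0.69, SE 0.173, adjusted p = 0.109, edgeR, and unadjusted p = 0.0252, DESeq2). An exon of it overlaps Mettl7b on the other strand, and reads were counted on both strands together, so its level is less certain. Itga6 was measured at 96.2 and 95.3 CPM in control, 62.4 CPM in Isl1_KO replicate 1 and 83.6 CPM in replicate 2, which made it the abundant chain with the lower value in replicate 1 by the widest margin (log2 fold change -0.39, SE 0.146, adjusted p = 0.198, edgeR). Itga3 showed the opposite order, with 113.4 and 113.1 CPM in control, 111.1 CPM in Isl1_KO replicate 1 and 43.0 CPM in replicate 2 (log2 fold change -0.55, SE 0.417, adjusted p = 0.471, edgeR). The ratio of Itga6 to Itga3, per transcript length, was 0.684 and 0.680 in control and 0.453 and 1.57 in Isl1_KO, so the Isl1_KO libraries lay on either side of control.

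Among the RGD-binding alpha chains (Itga5, Itga8, Itgav and Itga2b), 3 had lower and 1 had a higher mean in Isl1_KO, and none passed in edgeR. Itga8, a receptor chain for nephronectin and fibronectin in mesenchyme, was measured at 54.4 and 58.9 CPM in control and 38.4 and 20.7 CPM in Isl1_KO. The groups did not overlap (1.91-fold, log2 fold change -0.93, SE 0.285, adjusted p = 0.150 in edgeR and 0.0267 in DESeq2). Itgav, a partner of Itgb3, was at 162.8 and 172.6 CPM in control and 141.1 and 109.2 CPM in Isl1_KO. Its log2 fold change was -0.42 (SE 0.132, adjusted p = 0.156, edgeR). Itga5 encodes the classical fibronectin receptor chain and was the most abundant alpha chain. Its level was 257.5 and 268.2 CPM in control, 298.9 CPM in Isl1_KO replicate 1 and 186.0 CPM in replicate 2, above and below control respectively (log2 fold change -0.12, SE 0.221, adjusted p = 0.790, edgeR).

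Itga2b encodes CD41, the platelet fibrinogen receptor chain, which also marks the earliest embryonic blood progenitors. It was the chain with the largest positive difference, at 11.4 and 11.7 CPM in control and 20.1 and 18.7 CPM in Isl1_KO, with tight replicates in both groups. On the log2 scale the difference was 0.75 (SE 0.129, adjusted p = 0.0616 in edgeR and 0.0748 in DESeq2). It passed in edgeR where genes of low counts were kept (adjusted p = 0.0437) and where either Isl1_KO library was left out (1.02e-05 without replicate 1 and 1.90e-07 without replicate 2), fits in which the spread comes from the control pair alone. Of the other listed platelet markers, Gp9 and Pf4 were at or below 0.328 CPM in all libraries, too low to compare, and Gp1bb was at 2.84 and 2.95 CPM in control and 3.38 and 3.21 CPM in Isl1_KO (adjusted p = 0.674, edgeR). Of the 7 blood markers, Runx1, a regulator of blood stem cell emergence, rose from 70.4 and 71.9 CPM in control to 101.5 and 109.7 CPM in Isl1_KO (log2 fold change 0.57, adjusted p = 0.0335, edgeR). Tal1 and Gata1 were at 38.0, 39.9, 58.3 and 90.0 CPM and at 9.08, 8.10, 14.5 and 16.4 CPM in the 4 libraries in the same order (adjusted p = 0.0973 and 0.0698, edgeR). The embryonic globin gene Hbb-bh1 went the other way, at 284.1 and 293.0 CPM in control and 159.7 and 42.0 CPM in Isl1_KO (adjusted p = 0.206, edgeR), and Ptprc and Spi1 stayed at or below 0.347 CPM. The part of blood-forming cells in the Itga2b level was not tested.

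Itga4 and Itga9 form a separate pair of alpha chains that bind VCAM-1, fibronectin splice forms and tenascin. Itga4 was measured at 83.1 and 90.7 CPM in control and 114.4 and 90.9 CPM in Isl1_KO (log2 fold change 0.24, adjusted p = 0.321, edgeR). An exon of it overlaps Cerkl on the other strand. Itga9 was at 29.5 and 36.3 CPM in control and 34.0 and 38.8 CPM in Isl1_KO (log2 fold change 0.14, adjusted p = 0.589, edgeR). These 2 chains and Itga11 and Itga2b were the integrin chains with a positive log2 fold change.

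Among the beta chains, Itgb1, the shared partner of most alpha chains, was at 1375 and 1378 CPM in control, 1376 CPM in Isl1_KO replicate 1 and 984.5 CPM in replicate 2. Replicate 1 thus lay between the control libraries while replicate 2 lay below it (log2 fold change -0.22, SE 0.162, adjusted p = 0.458, edgeR). Itgb5, another partner of alphaV, was at 188.1 and 189.5 CPM in control and 186.5 and 142.0 CPM in Isl1_KO (log2 fold change -0.20, adjusted p = 0.426, edgeR). Its replicate 1 lay just below both control libraries and its replicate 2 further below. Itgb8 and Itgb4 were at or below 5.14 CPM in all libraries, and neither passed (adjusted p = 0.279 and 0.847, edgeR). Of the beta chains of at least 10 CPM, Itgb3 was therefore the one lower by a like amount in both Isl1_KO libraries. It was lower by 0.86 and 1.02 on the log2 scale. Itgb8, at its low level, was also lower in both, with log2 differences of -0.37 and -0.60.

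Of the laminin alpha chains, Lama1, the chain of the earliest embryonic basement membranes, came next to Lama2. It was measured at 156.2 and 158.2 CPM in control and 113.1 and 75.9 CPM in Isl1_KO without overlap (1.66-fold, log2 fold change -0.73, SE 0.187, adjusted p = 0.113 in edgeR and 0.0105 in DESeq2). Lama4, the mesenchymal and endothelial chain, was at 258.5 and 252.8 CPM in control, 333.5 CPM in Isl1_KO replicate 1 and 211.0 CPM in replicate 2 (log2 fold change 0.09, adjusted p = 0.831, edgeR). The broadly expressed Lama5 was at 220.8 and 230.3 CPM in control and 203.5 and 243.9 CPM in Isl1_KO (log2 fold change -0.01, adjusted p = 0.958, edgeR). Lama4 and Lama5 therefore straddled control, in opposite order. Lama3, the epithelial chain, did not exceed 1.75 CPM (adjusted p = 0.226, edgeR).

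The laminin beta and gamma chains were dominated by Lamb1 and Lamc1, which join in most embryonic laminins. Lamb1 was at 589.4 and 584.1 CPM in control and 539.5 and 380.7 CPM in Isl1_KO (log2 fold change -0.35, SE 0.167, adjusted p = 0.284, edgeR). Lamc1 was at 848.7 and 859.5 CPM in control and 806.5 and 579.9 CPM in Isl1_KO (log2 fold change -0.30, SE 0.160, adjusted p = 0.324, edgeR). In both, replicate 1 was slightly and replicate 2 clearly below control. Lamb2 was at 136.2, 134.2, 144.3 and 106.2 CPM in the 4 libraries (adjusted p = 0.702, edgeR), and Lamb3 stayed at or below 2.34 CPM.

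Each Isl1_KO library was then set against control on its own, as log2 CPM minus the mean of the control libraries. A single library has no test of its own. In replicate 1, 6 chains were lower by more than 0.58 (9.08% of all tested genes) and 1 was higher by that much (2.15% of all). In replicate 2, 13 chains were lower (13.9% of all) and 1 was higher (5.64% of all), the latter being Itga2b in both. The median was -0.27 in replicate 1 and -0.50 in replicate 2 for integrins, and -0.13 and -0.59 for laminins, with all tested genes at -0.0005 and 0.0033. Replicate 2 lay below replicate 1 for 23 of the 28 chains (82.1%), compared with 48.3% of all tested genes. Of the 20 chains with at least 10 CPM, where counting error is small, 17 were lower in replicate 2 than in replicate 1 (85.0%, against 48.0% of 9281 such genes). The control libraries differed by at most 0.31 on the log2 scale in these 20 chains.

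**Figure D2:**
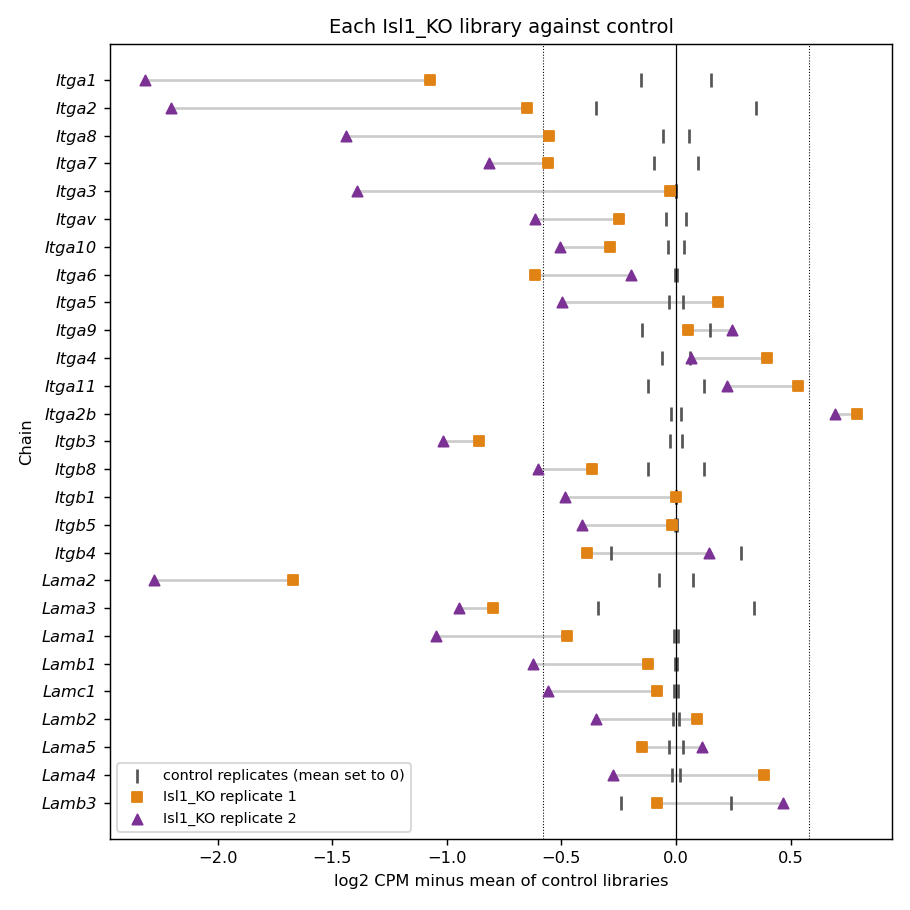
Difference in log2 CPM between each Isl1_KO library and the mean of the control libraries for 27 of the 28 tested chains, with the control libraries as ticks around 0 and dotted lines at an absolute difference of 0.58. Itgb3 and Itga2b are among the chains with both symbols close together on 1 side of 0, as are Itga7 and the low-level Lama3, Itga10 and Itgb8. In contrast, Itga3, Itgb1, Itgb5, Lamb1 and Lamc1 have replicate 1 close to 0 and replicate 2 well to the left.

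The plot of single libraries separates chains with like differences in both Isl1_KO libraries from those with a difference in 1 of them. The summed markers of smooth muscle and of fibroblasts were also lower in replicate 2 than in replicate 1. The summed level of 4 smooth muscle markers (Acta2, Tagln, Cnn1 and Myh11) was 2435 and 2438 CPM in control, 2082 CPM in Isl1_KO replicate 1 and 679.1 CPM in replicate 2, where all 4 lay below both control libraries. The 5 fibroblast markers (Col1a1, Col1a2, Postn, Thy1 and Dcn) summed to 1465 and 1454 CPM in control, 929.9 CPM in replicate 1 and 441.5 CPM in replicate 2, so that replicate 1 was already below control. Tagln (842.2 CPM in replicate 1, above both control libraries) and Thy1 (2.31 CPM in replicate 1 and 3.82 CPM in replicate 2) did not follow the sums. No gene of these lists was at 0 in both Isl1_KO libraries and none passed in edgeR. The 7 endothelial markers summed to 382.4 and 382.9 CPM in control and 338.4 and 373.7 CPM in Isl1_KO, but most of this sum was Kdr, at 216.7 and 213.6 CPM in control and 186.4 and 277.6 CPM in Isl1_KO. In each Isl1_KO library 5 of the 7 lay below both control libraries, among them Tek (log2 fold change -1.18) and Tie1 (-1.02), and Emcn, at 1.70 and 1.09 CPM in control, was at 0 in both. None of the 7 passed in edgeR. The 4 epithelial markers summed to 1248, 1242, 1374 and 1317 CPM. Replicate 2 also stood apart in 2 other lists. The 9 endoderm markers summed to 80.4 and 79.3 CPM in control and 78.5 and 54.05 CPM in Isl1_KO. The 5 markers of pluripotent cells summed to 10.6 and 11.3 CPM in control and 11.1 and 23.7 CPM in Isl1_KO. No gene of these lists passed in edgeR. The part of these cell types in the levels of the chains was not tested. The tested members were long, with a median length of 5752 bases against 3009 for all tested genes. The 2543 longest genes, those over 4929 bases, had medians of -0.10 and -0.06 in replicates 1 and 2. After a length correction, 5 chains were lower by more than 0.58 in replicate 1 (8.99% of all tested genes) and 11 in replicate 2 (13.9% of all).

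Levels of different chains were compared per transcript length, in RPKM (CPM per kilobase). The integrin chains summed to 554.9 and 560.3 RPKM in control, 549.7 RPKM in Isl1_KO replicate 1 and 394.4 RPKM in replicate 2. The laminin chains summed to 327.0 and 328.1 RPKM in control, 319.5 RPKM in replicate 1 and 232.0 RPKM in replicate 2. Replicate 1 was thus near control in the total, and replicate 2 was below it for both families. The summed beta chains exceeded the summed alpha chains by 2.54- and 2.47-fold in control and 2.51- and 2.62-fold in Isl1_KO, a ratio that hardly moved.

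Within the alpha chains of control, Itga5 led with a mean of 59.4 RPKM, followed by Itgav at 23.9, Itga3 at 23.4, Itga6 at 15.98, Itga8 at 9.74 and Itga4 at 8.87 RPKM, and Itgav and Itga3 were not separated beyond the spread of the libraries. Itga5 took 37.1% and 37.5% of the summed alpha chains in control and 43.2% and 38.6% in Isl1_KO. Itga2b took 2.13% and 2.13% in control and 3.77% and 5.05% in Isl1_KO, so its share was larger in both Isl1_KO libraries. Itga8 took 5.96% and 6.27% in control and 4.23% and 3.27% in Isl1_KO. Itgb1 made up 82.7% and 82.7% of the beta chains in control and 83.8% and 82.6% in Isl1_KO, while Itgb3 took 2.17% and 2.09% in control and 1.19% and 1.47% in Isl1_KO.

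The laminin alpha chains of control were ordered Lama4 (a mean of 42.6 RPKM), Lama5 (19.95), Lama1 (16.6), Lama2 (0.906) and Lama3 (0.135). Lama1 made up 20.6% and 20.8% of the laminin alpha chains in control and 13.9% and 12.4% in Isl1_KO. Its share was thus lower in both Isl1_KO libraries by a like amount, also in replicate 1, where the summed alpha chains were at 85.8 RPKM against 80.1 and 80.3 RPKM in control. The ratio of Lama4 to Lama1 was 2.60 and 2.51 in control and 4.64 and 4.38 in Isl1_KO. Lama4 itself took 53.8% and 52.4% in control and 64.7% and 54.1% in Isl1_KO, and Lama5 24.4% and 25.4% in control and 21.0% and 33.2% in Isl1_KO. Lamb1 kept 77.2% to 80.6% of the beta chains and Lamc1 93.1% to 94.2% of the gamma chains in all 4 libraries.

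**Figure D3:**
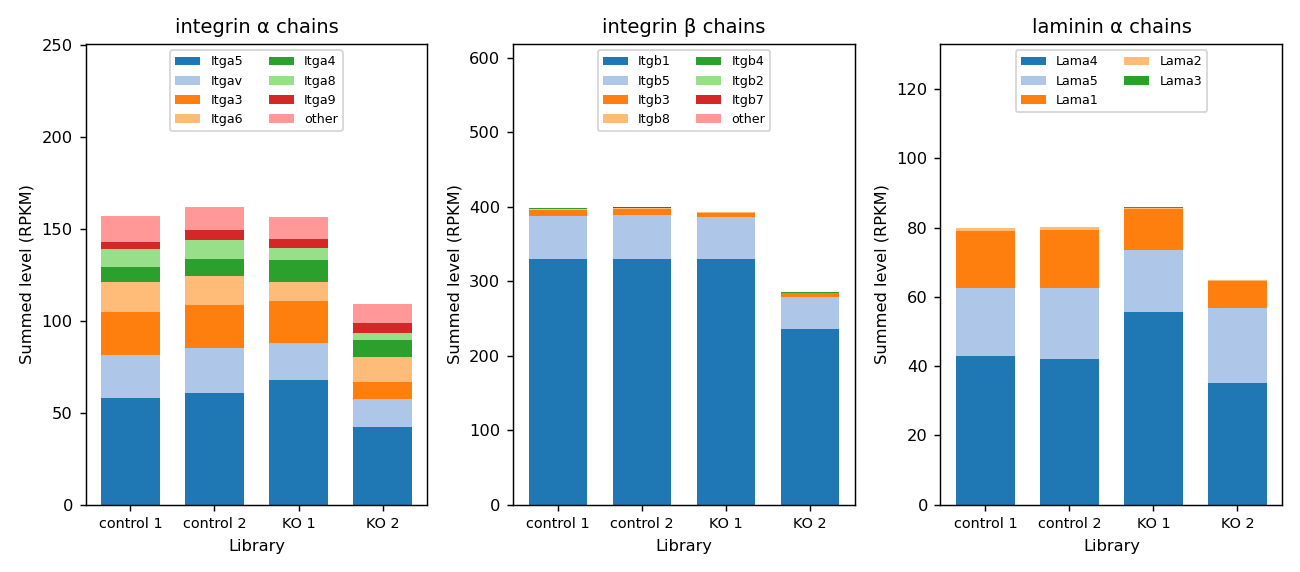
Summed level in RPKM of the integrin alpha, integrin beta and laminin alpha chains in each library, stacked by chain, with KO for Isl1_KO. Itga5, Itgb1 and Lama4 form the largest blocks in every library, Isl1_KO replicate 2 has the lowest bar in each panel, and Lama1 is a smaller share in both Isl1_KO libraries (13.9% and 12.4%) than in control (20.6% and 20.8%).

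The stacked plot of levels shows that the leading chain of each family was the same in all 4 libraries. Related genes were read from the same tests, beside the shares of all genes given above (2.45% called in edgeR, 23.3% at an unadjusted p under 0.05, and 4.57% at the criteria of the study on the lower side). Of 32 tested focal adhesion genes, which link integrin tails to actin, 0 were called in edgeR, 7 had an unadjusted p under 0.05, close to the share over all genes, and 3 met the criteria of the study in DESeq2, all on the lower side (Fermt1, Ptk2b and Nexn). Their median difference was 0.04 in Isl1_KO replicate 1 and -0.47 in replicate 2, and 26 of the 32 lay lower in replicate 2 than in replicate 1. The core adaptors Tln1 and Ilk were at 522.6, 506.7, 546.7 and 366.4 CPM and at 246.4, 254.2, 270.0 and 171.7 CPM in the 4 libraries, with replicate 1 above and replicate 2 below control.

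Of 17 tested basement membrane genes other than laminins, 2 were called, and both fell. Col18a1, the source of endostatin, was at 546.7 and 560.8 CPM in control and 345.7 and 304.0 CPM in Isl1_KO (log2 fold change -0.77, SE 0.0854, adjusted p = 0.0228, edgeR). Nid2 encodes a nidogen, which links laminin to collagen IV, and was at 228.2 and 231.4 CPM in control and 157.3 and 161.7 CPM in Isl1_KO (log2 fold change -0.53, SE 0.0624, adjusted p = 0.0279, edgeR). An exon of Nid2 overlaps 2700060E02Rik on the other strand. All 17 log2 fold changes of this list were negative, with a median of -0.34, although those of the collagen IV genes Col4a1 and Col4a2 were as small as -0.02 and -0.04.

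A list of integrin ligands and related genes held 22 tested genes, of which 1 was called. At an unadjusted p under 0.05 in edgeR there were 10 (23.3% of all tested genes). The criteria of the study were met by 7, all on the lower side (4.57% of all genes with counts). The called gene was Tgfb2, at 360.2 and 347.0 CPM in control and 137.0 and 98.3 CPM in Isl1_KO. Its log2 fold change was -1.59 (SE 0.163, adjusted p = 0.0185, edgeR). The Tgfb2 product is not an established integrin ligand, and its binding to integrins was not tested. No other gene of the list was called. The median log2 fold change of the list was -0.84, and all 22 genes were lower in Isl1_KO replicate 2 than in replicate 1, with medians of -1.25 and -0.45. This list shares Postn, Col1a1 and Col1a2 with the fibroblast markers. Fibronectin (Fn1) was at 4895 and 4934 CPM in control and 3845 and 3844 CPM in Isl1_KO (log2 fold change -0.35), with nearly the same value in both Isl1_KO libraries.

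**Figure D4:**
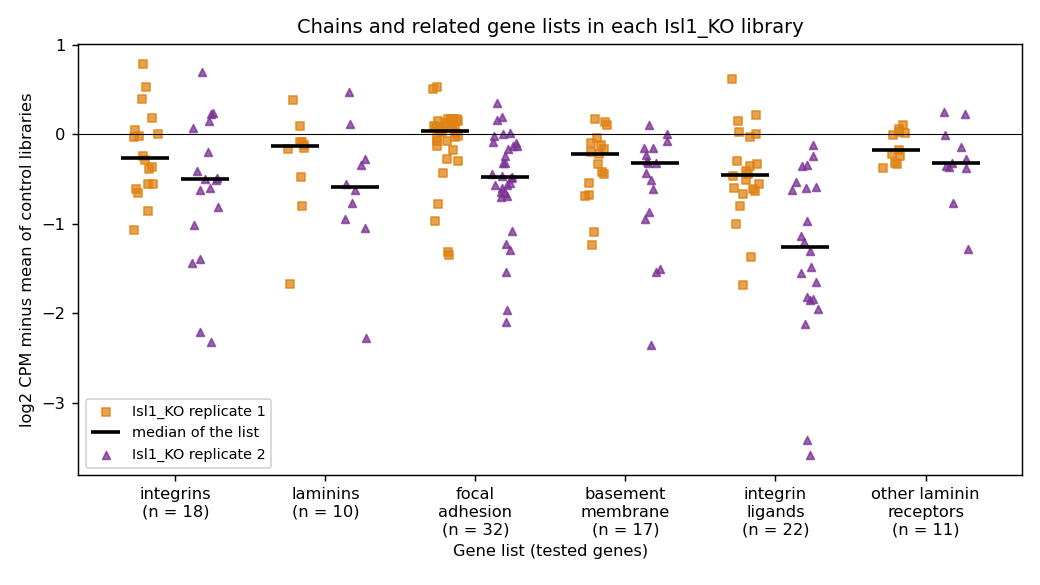
Difference in log2 CPM between each Isl1_KO library and the mean of the control libraries for the tested integrins, laminins and related lists, with 1 point per gene and a bar at the median of the list. The list of integrin ligands and related genes has the lowest medians (-0.45 in replicate 1 and -1.25 in replicate 2). The focal adhesion list has a median near 0 in replicate 1 (0.04) and a negative one in replicate 2 (-0.47).

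The plot of gene lists sets the chains beside their partners, and replicate 2 has the lower median in every list shown. A list of laminin receptors other than integrins and of proteins associated with them gave 0 calls in edgeR among 11 tested genes. Dystroglycan (Dag1) and the syndecans were on it, as were the sarcoglycans, Dmd and Utrn, which are not laminin receptors themselves. At an unadjusted p under 0.05 there were 4 (23.3% of all tested genes), and 1 (Sgce) met the criteria of the study in DESeq2 on the lower side. Dag1 was at 270.3 and 283.2 CPM in control and 234.1 and 250.2 CPM in Isl1_KO (log2 fold change -0.19).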

How the data were processed

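Poly(A) RNA of 2 control and 2 Isl1_KO samples was sequenced from stranded libraries, and samples were grouped by their titles. Titles and genotype labels name a knockout. The series design mentions knockdown constructs, and the titles were followed. The authors mapped reads to mm9 with STAR (introns of 20 to 500000 bases) and counted exonic reads per RefSeq transcript with HOMER on both strands, so the deposited values are raw counts. RPKM columns, deposited by the authors from an edgeR calculation, were not used, nor were the deposited DESeq2 columns (base mean, log2 fold change, SE, statistic and p-values). Versions of these tools were not given in the sources used here. Other deposited columns held the transcript length.

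For each symbol the transcript with the highest summed count was kept (20701 of 31507 entries), which settled 14 members with several transcripts. Counts went into edgeR 4.0.16 (limma 3.58.1, R 4.3.3) with TMM scaling, filterByExpr and no block, and a two-sided quasi-likelihood F test was made for 12715 genes. P-values were adjusted by Benjamini-Hochberg over all of them and called under 0.05. SE is the fitted log2 fold change over the root of F. DESeq2 1.42.0 (Wald test, 16855 genes) served for the criteria of the study. CPM used effective library sizes. RPKM in the text is CPM per kilobase. Log2 differences of single libraries used a prior count of 2. Groups of 2 are given by both values, since 2 against 2 allows no exact permutation p under 0.333. A floor of 3 counts was 0.228 to 0.340 CPM and, like all count errors here, covers counting error only. Per-sample columns without a matching sample numbered 0.

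All 37 members were placed in GENCODE vM1 (NCBIM37, the assembly behind mm9), and 4 (Itga4, Itga7, Itga10 and Itgad) had an exon overlapping another protein-coding gene, where reads can be shared. Chains with a call by edgeR or by the criteria of the study were described in full, others of at least 10 CPM by their values, and the rest by ranges. Of the chains that this rule names, 1 is not reported here by itself, but it is kept in the counts, sums and medians. From the related lists the called genes were named; Tln1, Ilk, Col4a1, Col4a2, Fn1, Dag1, Pelo, Mocs2, Parp8 and single markers and the genes of the study criteria were added after their values were seen. The members, lists and tests were chosen with earlier results of these data known. The fitting steps were tested on simulated data with the same spread in both groups. That test does not cover the unequal spread of the control and Isl1_KO pairs. Python 3.11.15, pandas 2.3.3, numpy 2.4.6 and matplotlib 3.10.9 were used.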

Additional observations from a re-analysis of the deposited data

How the results depend on the processing

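The precision is set by the Isl1_KO pair, since the control pair hardly differed. Over all genes, the 311 calls became 604 with DESeq2, 492 without a filter on low counts, 92 when the change was tested against 1.5-fold, and 27 to 6350 with 1 library left out. Without an Isl1_KO library, the spread comes from the narrow control pair alone, and the remaining Isl1_KO library is assumed to vary like it. Among the members, the 2 calls became 5 with DESeq2, 0 against 1.5-fold and 0 to 21 with 1 library left out (0 without either control library, 21 without Isl1_KO replicate 1 and 15 without Isl1_KO replicate 2). The other alternatives (RLE size factors, no filter, at least 10 counts in every library, the longest transcript, all transcripts, a length offset) gave 2 or 3 calls, always with Itgb3 and Lama2.

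The replicate numbers did not pair the samples (correlation of deviations 0.0128 over 12715 genes). A block for the replicate number gave 454 called genes and 3 called members, and block and length offset together gave 439 genes and 3 members, Itga1 being the added chain.

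Some chains turned direction. Lama5 was at 0.00018 without a filter, 0.0956 with a length offset and 0.0923 with the block and that offset. With 1 library left out, log2 fold changes ran from -0.15 to 0.11 for Lama5, -0.50 to 0.19 for Itga5, -0.48 to 0.00046 for Itgb1, -0.28 to 0.39 for Lama4 and -0.35 to 0.095 for Lamb2. The medians of integrins (-0.51 to -0.27) and laminins (-0.59 to -0.13) stayed negative. Of 336 alternatives over 24 genes, 278 kept direction and side of the threshold. The length correction of single-library differences was chosen after seeing the data and turned no median.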
